A study of Mus musculus with 18 samples.

Results

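The nucleosome remodelling and deacetylase (NuRD) complex was followed through 9 of its subunits, Mbd3, Chd4, Hdac1, Hdac2, Mta1, Mta2, Rbbp4, Rbbp7 and Gatad2a, in mouse embryonic stem (ES) cells. All probe sets, the groups of short oligonucleotides that each read 1 transcript, were taken whose chip annotation gave a subunit as its only gene symbol. This rule found 14 probe sets of 8 genes among the 36701 probe sets that are not controls. Of the 14, 11 stand on chip U74Av2, 3 on U74Bv2 and 0 on U74Cv2. Gatad2a had 5 probe sets and Chd4 had 3, and Mbd3, Hdac1, Hdac2, Mta2, Rbbp4 and Rbbp7 had 1 each. No probe set was annotated to Mta1 alone, which was therefore not analysed here. The chips with single-gene probe sets covered 15964 genes in all.

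One group was the transgenic FVB/N ES line that overexpresses STAT3-MER, kept in OHT (4-hydroxytamoxifen) and without LIF. STAT3-MER is the transcription factor STAT3 joined to a mutated hormone-binding domain of the estrogen receptor, is expressed from the ubiquitous β-actin promoter of the chicken and is activated by OHT. It was set against the wild type (WT) FVB/N ES line kept in LIF (leukaemia inhibitory factor), the cytokine that activates STAT3 in normal culture. Each group was 3 independently grown dishes of 1 cell line on each of the 3 chips, 18 arrays in all, so that p-values measure the spread between dishes and not between lines, and line, transgene and medium cannot be told apart.

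NuRD joins 2 enzyme activities in 1 complex. Chd4 moves nucleosomes with the energy of ATP, and Hdac1 and Hdac2 remove acetyl groups from histone tails. Mbd3 belongs to the methyl-CpG binding family and links the deacetylase part to the remodelling part, Mta proteins form the scaffold that holds the deacetylases, Rbbp4 and Rbbp7 are histone-binding WD40 proteins, and Gatad2a bridges Mbd3 and Chd4. The closely related Mbd2 takes the place of Mbd3 in a separate form of the complex. In mouse ES cells Mbd3 is known to be needed for the complex to hold together and for the cells to silence pluripotency genes and differentiate when LIF is withdrawn.

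The promoters are shown because STAT3 is the factor that was altered, and because Mbd3, Chd4 and Rbbp4 are the subunit that defines this form of the complex and those with the lowest and the highest ratio between the groups among its bright probe sets. The 250 bases before the start of transcription were read from RefSeq on build GRCm38.p6, 5′ to 3′ on the strand of the gene, and capitals mark the CCAAT box, written ATTGG where it lies on the other strand.
Mbd3, chr10:80399532-80399781, minus strand: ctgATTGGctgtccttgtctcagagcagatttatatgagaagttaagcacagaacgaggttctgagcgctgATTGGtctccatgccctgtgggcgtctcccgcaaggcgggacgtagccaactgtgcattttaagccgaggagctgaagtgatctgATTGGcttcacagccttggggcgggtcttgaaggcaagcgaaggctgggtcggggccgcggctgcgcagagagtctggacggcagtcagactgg
Chd4, chr6:125095913-125096162, plus strand: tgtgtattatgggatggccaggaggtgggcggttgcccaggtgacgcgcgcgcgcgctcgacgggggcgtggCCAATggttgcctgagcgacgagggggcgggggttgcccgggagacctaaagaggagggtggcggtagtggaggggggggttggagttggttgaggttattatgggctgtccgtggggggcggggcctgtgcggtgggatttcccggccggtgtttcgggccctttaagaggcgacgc
Rbbp4, chr4:129335371-129335620, minus strand: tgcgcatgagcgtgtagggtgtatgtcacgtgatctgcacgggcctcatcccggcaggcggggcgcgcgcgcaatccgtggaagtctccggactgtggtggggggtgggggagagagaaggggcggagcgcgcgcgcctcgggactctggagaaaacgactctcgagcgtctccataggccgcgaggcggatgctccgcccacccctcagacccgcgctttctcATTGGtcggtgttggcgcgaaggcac

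The table held 10 such windows of 8 subunit genes, Mta1 among them, and Hdac1 had no entry. The STAT element TTCNNNGAA, which reads the same on both strands, was found in 0 of the 10 windows and in 7.02% of 32851 mouse promoters of this length. A CCAAT box on either strand was found in 5 of the 10 windows and in 33.85% of all promoters. The Mbd3 window held 3 of them, the one of Chd4 shown above 1 and that of Rbbp4 1. The subunit promoters were rich in CpG, with a median of 23.5 CpG per window (range 12 to 39) against a median of 6 over all promoters, and had a median GC content of 67.6% against 52.4%. These are descriptions of the letters in the window, and no binding was measured.

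The brightest Esr1 probe set, which reads the estrogen receptor whose hormone-binding domain is part of the transgene, lay at 25568 to 31548 in STAT3-MER dishes and at 9.25 to 40.3 in WT dishes. It was the 1 probe set past the threshold among all 36701, higher in STAT3-MER cells (log2 fold change 9.01, SE 0.24, adjusted p = 7.58e-06, limma with Benjamini-Hochberg adjustment). Markers of the fibroblasts on which the lines had been established varied between dishes, and are given beside the results that they move with. RNA had been amplified in 2 rounds before labelling, and the signals are on a linear scale with a trimmed mean near 500.1 to 500.3 on each array.

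No NuRD subunit passed the test. At an adjusted p under 0.05 (limma on log2(signal + 32), adjusted over all 36701 probe sets), 0 of the 14 probe sets were called, against 0.00272% of all probe sets, and 1 had an unadjusted p under 0.05, against 3.45% of all. The 8 genes therefore gave a description of levels and a range within which a difference could lie. The log2 fold change, STAT3-MER OHT over WT LIF, was above 0 for 5 probe sets and below 0 for 9, with a median of -0.06 beside 0.01 over all probe sets. The median size without sign was 0.18 for the subunits and 0.22 over all probe sets. The 95% interval lay within a 2-fold change in either direction for 10 of the 14.

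**Figure D1:**
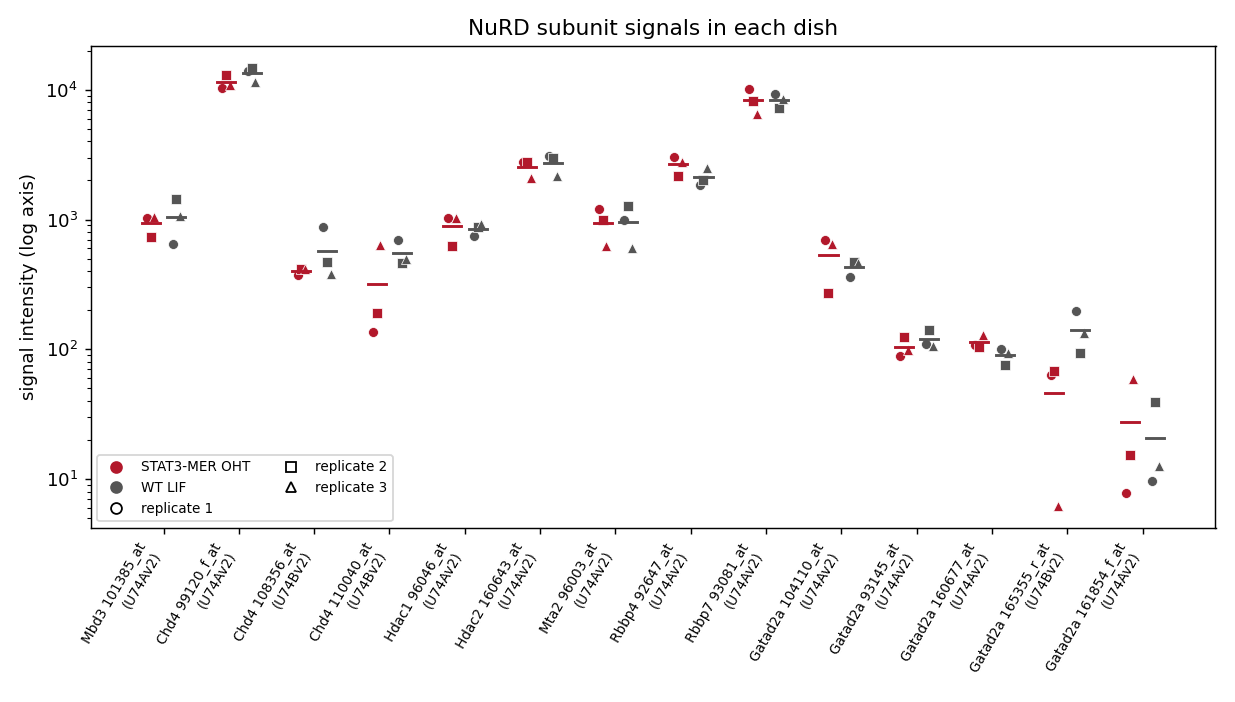
Signal intensity (log axis) of the 14 NuRD probe sets in each dish, STAT3-MER OHT in red at the left and WT LIF in grey at the right of each pair, with a bar at the mean of 3 dishes and the chip in parentheses. The groups overlap for every probe set except Gatad2a 160677_at and Gatad2a 165355_r_at, whose signals are among the dimmest.

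Mbd3, on chromosome 10, was read by 101385_at. Its signal was 1029, 727 and 1054 in STAT3-MER dishes 1 to 3, and 653, 1437 and 1060 in WT dishes 1 to 3. The highest and the lowest dish were both WT, so that the STAT3-MER values lay inside the WT range. The means were 936.5 ± 182 in STAT3-MER cells and 1050 ± 392 in WT cells (SD, n = 3 each), a ratio of 0.892. The log2 fold change of -0.11 (SE 0.30) had a 95% interval of -0.80 to 0.58 and did not pass the test (adjusted p = 1, limma). A change of Mbd3 to under 0.573-fold or over 1.5-fold thus lay outside the interval, which is not adjusted for the 36701 probe sets tested. Changes within it could not be told from no change with these dishes. The interval is not a limit of detection, since larger changes could also fail the adjusted test. The sign of the difference turned when STAT3-MER dish 2 (0.06) or WT dish 2 (0.14) was left out.

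The remodelling ATPase Chd4, on chromosome 6, had 3 probe sets. The bright 99120_f_at, whose suffix marks probes shared by a sequence family, gave 10235, 12995 and 10944 in STAT3-MER dishes, against 13885, 14757 and 11524 in WT dishes. The groups overlapped, and the ratio of the means was 0.851 (log2 fold change -0.23, SE 0.20, 95% interval -0.68 to 0.22). On U74Bv2, 108356_at gave 375, 414 and 413 in STAT3-MER dishes, against 882, 470 and 379 in WT dishes. Here the STAT3-MER dishes lay close together and WT dish 1 stood high. Without that dish the log2 fold change of 108356_at was -0.07, beside -0.41 (SE 0.35) with it. The third, 110040_at, gave 136, 191 and 636 in STAT3-MER dishes, against 697, 461 and 495 in WT dishes. STAT3-MER dish 3 lay within the WT range and the other two STAT3-MER dishes lay below it, and the log2 fold change of -0.97 (SE 0.50, 95% interval -2.09 to 0.14) had an unadjusted p of 0.0797 and an adjusted p of 1 by limma. It was -0.58 without STAT3-MER dish 1 and -1.57 without STAT3-MER dish 3. All 3 probe sets of Chd4 were lower in STAT3-MER cells by their means. They kept this sign with quantile normalization, median scaling, other pseudocounts or a dish left out, the alternatives that moved the log2 fold changes. However, they are read from the same 6 dishes and none passed the test.

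The deacetylases differed by less than the spread between dishes. Hdac1 (96046_at, chromosome 4) gave 1028, 627 and 1021 in STAT3-MER dishes, against 740, 881 and 919 in WT dishes, with STAT3-MER dish 2 the lowest of the 6. Its log2 fold change was 0.05 (SE 0.24, 95% interval -0.50 to 0.59). Hdac2 (160643_at, chromosome 10) gave 2787, 2757 and 2077 in STAT3-MER dishes, against 3103, 2963 and 2146 in WT dishes. In both groups dish 3 was the lowest for Hdac2, and the log2 fold change was -0.10 (SE 0.21, 95% interval -0.59 to 0.39).

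The scaffold subunit Mta2 (96003_at, chromosome 19) gave 1206, 997 and 622 in STAT3-MER dishes, against 996, 1264 and 607 in WT dishes. The means almost coincided, at 942 ± 295 in STAT3-MER cells and 955 ± 330 in WT cells (SD, n = 3 each). The log2 fold change of -0.01 (SE 0.33) nevertheless had an interval of -0.77 to 0.75, with dish 3 the lowest in both groups, and the log2 fold change was 0.00 with median scaling.

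Of the histone-binding subunits, Rbbp4 (92647_at, chromosome 4) gave 3019, 2163 and 2784 in STAT3-MER dishes, against 1846, 2019 and 2489 in WT dishes. It had the highest ratio of means among the probe sets with a mean signal of at least 200, at 1.25, with 2 of 3 STAT3-MER dishes above all WT dishes. The log2 fold change of 0.32 (SE 0.20, 95% interval -0.15 to 0.79) did not pass the test (adjusted p = 1, limma). Its near relative Rbbp7 (93081_at, chromosome X) gave 10198, 8223 and 6531 in STAT3-MER dishes, against 9330, 7288 and 8535 in WT dishes. The highest and the lowest Rbbp7 value were both in STAT3-MER dishes, and the log2 fold change was -0.03 (SE 0.22, 95% interval -0.53 to 0.47).

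Gatad2a, on chromosome 8, had 5 probe sets that did not give a single picture. The brightest, 104110_at, gave 698, 270 and 642 in STAT3-MER dishes, against 363, 472 and 460 in WT dishes, so that STAT3-MER dishes stood both above and below all WT dishes. Its log2 fold change was 0.20 (SE 0.35, 95% interval -0.61 to 1.01). The other 4 had mean signals under 200. Among them 160677_at was higher in each STAT3-MER dish, at 107, 104 and 130, than in the WT dishes, at 101, 75.6 and 93.0. By contrast 165355_r_at was lower in each STAT3-MER dish, at 63.4, 67.7 and 6.18, than in the WT dishes, at 197, 93.2 and 133. These 2 Gatad2a probe sets, which point in opposite directions, were the 2 of 14 whose groups did not overlap, against 8.13% of all probe sets (4.5% higher and 3.63% lower in STAT3-MER dishes). The log2 fold changes were 0.26 (SE 0.26) for 160677_at and -1.23 (SE 0.49) for 165355_r_at, with an adjusted p of 1 for both by limma, and 165355_r_at was the 1 probe set with an unadjusted p under 0.05. The last, on U74Bv2, has a suffix for probe sets that did not meet all design rules, rests on values near the floor of the array, and moved to -1.75 with a pseudocount of 8 and to -0.73 with one of 100. The remaining 2 overlapped, with 89.1 to 124 in STAT3-MER dishes and 106 to 141 in WT dishes for 93145_at, and with 7.75 to 58.8 in STAT3-MER dishes and 9.57 to 39.4 in WT dishes for 161854_f_at.

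**Figure D2:**
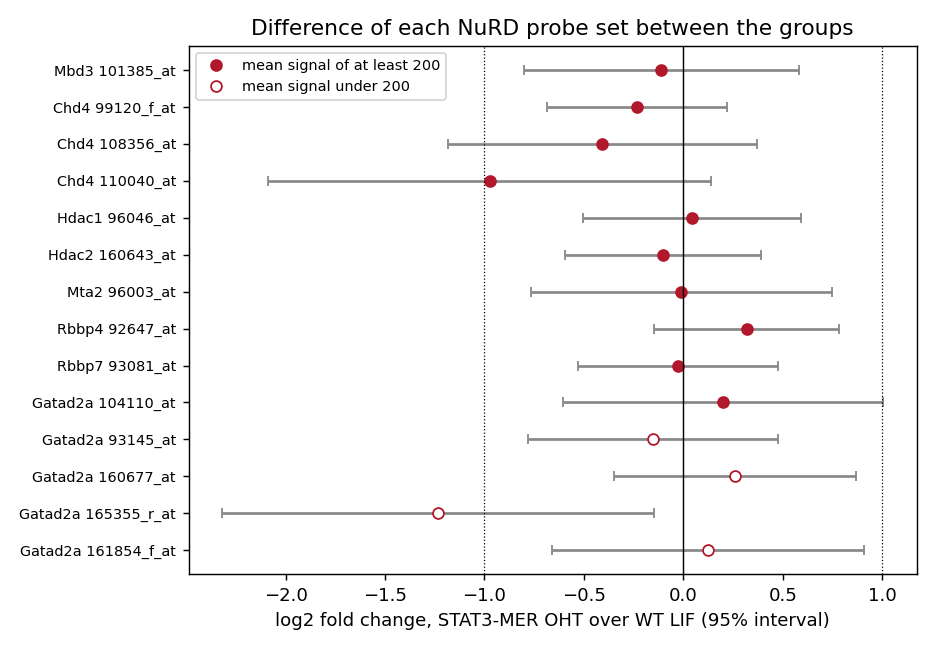
Log2 fold change, STAT3-MER OHT over WT LIF, of each NuRD probe set with its 95% interval (limma, 3 dishes against 3), with filled points for a mean signal of at least 200, open points below it and dotted lines at a 2-fold change. The intervals of 13 of the 14 probe sets cross 0, and that of the dim Gatad2a 165355_r_at, which ends at -0.15, does not.

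Among the 10 probe sets with a mean signal of at least 200, which still cover all 8 genes, 0 had groups that did not overlap. Over all probe sets at any signal this share was 8.13%. Their ratios of means ran between 0.582 for Chd4 110040_at and 1.25 for Rbbp4, and 7 of the 10 had an interval within a 2-fold change. The study's own criteria, a ratio over 1.5, a difference over 100 and p under 0.1 by the methods' t-test, were met by 0 of the 14 NuRD probe sets and by 1.98% of all. The study had applied them to values modelled from the single probes with dChip. Here they were applied to the deposited MAS5 signals, so the study's own procedure was not repeated. The p alone was under this limit for 2 of the 14, the same dim probe sets of Gatad2a, and for 2006 of all 36701 (unequal variances). After Benjamini-Hochberg adjustment at 0.05 it was so for 0 of the 14 and for 0 of all.

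Several subunits exist as pairs of paralogs that can replace each other in the complex, and their balance was followed as the difference of log2(signal + 32) between 2 paralogs on 1 array. Of 6 such pairs, 3 could be formed on 1 chip. The log2 ratio of Mbd3 over Mbd2 was 3.65, 2.73 and 3.35 in STAT3-MER dishes, against 2.27, 3.78 and 3.40 in WT dishes. Its mean differed by 0.10 (exact permutation test, two-sided, p = 0.9), and WT dishes held both the highest and the lowest ratio. The Mbd2 probe set was dim, at 52.3 to 82.0 in STAT3-MER dishes and 71.8 to 110.3 in WT dishes. The log2 ratio of Hdac1 over Hdac2 differed by 0.15 (exact p = 0.8), and that of Rbbp4 over Rbbp7 by 0.35, a 1.27-fold shift towards Rbbp4 (exact p = 0.4). It was 0.14 without STAT3-MER dish 3 and 0.17 without WT dish 1. For the last pair the log2 ratios were -1.75, -1.91 and -1.22 in STAT3-MER dishes, against -2.32, -1.84 and -1.76 in WT dishes. All 3 pairs had an adjusted p of 0.9 by the exact permutation test, and 3 dishes against 3 cannot give less than 0.1 before adjustment. Levels of different genes cannot be ranked from these ratios, since each probe set has its own response.

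Differences between dishes of 1 group were larger than those between the groups for most subunits. On the log2 scale the SD within groups was 0.44 for Mbd3, 0.50 for Mta2 and 0.52 for Gatad2a 104110_at, above the median of 0.32 over all probe sets of U74Av2. It was 0.18 for Chd4 99120_f_at, 0.23 for Rbbp4, 0.26 for Rbbp7, 0.26 for Hdac2 and 0.30 for Hdac1, below that median. The subunits did not vary together as 1 set. Mbd3, Hdac1, Rbbp4 and Gatad2a were lowest in STAT3-MER dish 2 among the STAT3-MER dishes and in WT dish 1 among the WT dishes, whereas Hdac2 and Mta2 were lowest in dish 3 of both groups. Over the 6 arrays of U74Av2, deviations from the group means correlated at r = 0.99 between Hdac1 and Gatad2a, 0.89 between Hdac1 and Rbbp4, 0.93 between Hdac2 and Mta2, 0.71 between Mbd3 and Hdac1 and -0.93 between Chd4 and Rbbp4. Mbd3 correlated at -0.32 with Hdac2, 0.04 with Mta2 and -0.45 with Rbbp7. The pairs given are a part of all pairs, and no share over other probe sets was counted for them. These arrays share their amplification and scaling, and the values are a description over 6 points from which the group means were taken out.

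The summed signal of 15 fibroblast marker genes was measured on the same arrays, at 11034, 53413 and 38780 in STAT3-MER dishes 1 to 3, and at 47784, 19459 and 47782 in WT dishes 1 to 3. All 15 were lower in STAT3-MER cells by their log2 fold change, with a median of -0.27 and 0 of 15 called, against 0.00626% of all genes. By the ratio of mean signals Col1a1 (1.002), Col5a2 (1.045) and Tagln (1.063) lay above 1 and the rest below it. STAT3-MER dish 1 had the lowest sum of all dishes. STAT3-MER dish 2 and WT dish 1, where Mbd3, Hdac1, Rbbp4 and Gatad2a were lowest, had the highest sum in their group, and WT dish 3 was as high in the sum as WT dish 1 but not low in these subunits. WT dish 2, where Mbd3 was highest, had the lowest sum of the WT dishes. In STAT3-MER dish 1, with the lowest sum, Hdac1, Rbbp4, Gatad2a, Hdac2, Mta2 and Rbbp7 were highest of the STAT3-MER dishes, but Mbd3 was highest in dish 3. Some subunits did not follow the sum in the same direction in both groups. Chd4 99120_f_at was highest in dish 2 of both groups, which had the highest sum in STAT3-MER cells and the lowest in WT cells. Hdac2 and Rbbp7 were highest in dish 1 of both groups, which had the lowest sum in STAT3-MER cells and the highest in WT cells. The part of fibroblast RNA in the NuRD values was not tested, and in such bulk samples fewer cells of a type and less RNA per cell cannot be told apart. Of the 15 markers, 2 had a mean signal under 200. The 9 ES cell markers on U74Av2, among them Pou5f1, Sox2 and Nanog, summed to 63973 to 72862 in STAT3-MER dishes and to 56507 to 84399 in WT dishes. The largest part of this sum was Dppa5a (ratio 0.79), at 43341 in WT dish 1, while Pou5f1 had a ratio of 1.415. By log2 fold change 7 of the 10 ES cell markers on all chips were higher and 3 lower, with a median of 0.19 and none past the test. Those of primitive endoderm (8 genes) summed to 939 to 1371 in STAT3-MER dishes and 791 to 1860 in WT dishes, with 7 of 8 under a mean of 200. Those of trophectoderm (7 genes) summed to 3553 to 5782 in STAT3-MER dishes and 3248 to 6239 in WT dishes, with 4 of 7 under a mean of 200. Most of this sum was Tfap2c (ratio 1.26), while Krt8 (0.493) and Krt18 (0.595) lay lower in STAT3-MER cells by their means, none of them past the test. A second probe set of Krt18 went the other way, with a ratio of 1.92. By log2 fold change 2 of the 7 trophectoderm genes were higher and 5 lower.

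**Figure D3:**
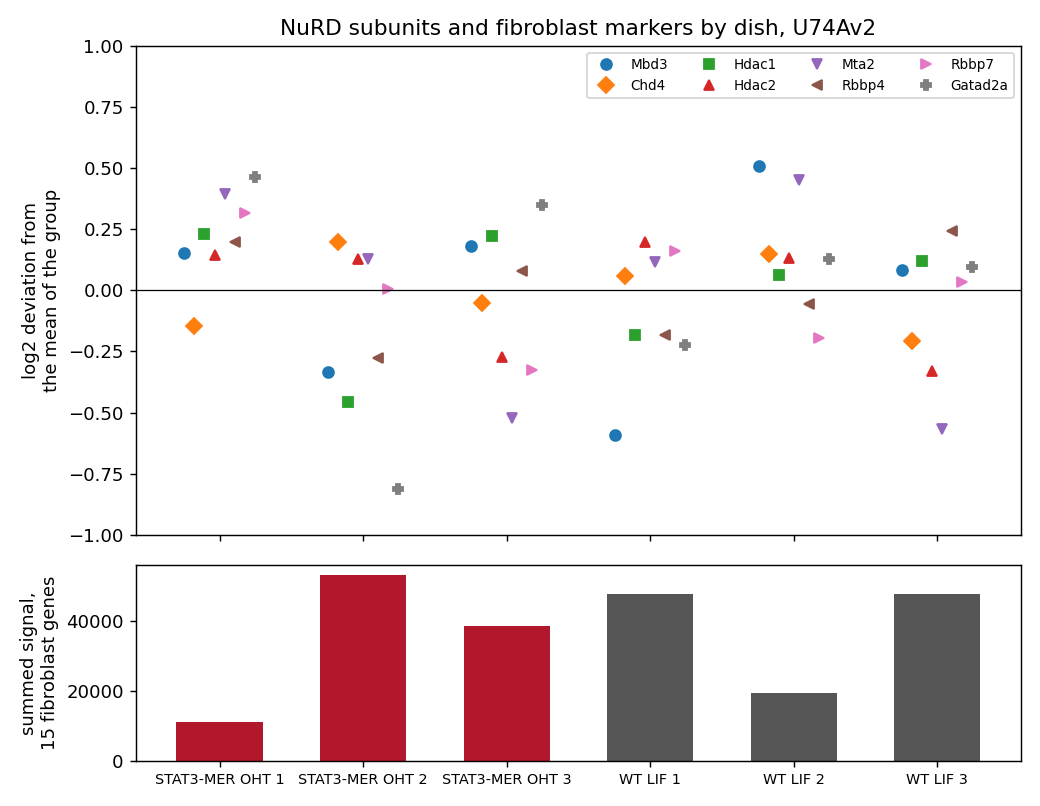
Upper panel, log2 deviation of each NuRD subunit on U74Av2 from the mean of its group (Chd4 by 99120_f_at, Gatad2a by 104110_at), by dish; lower panel, summed signal of 15 fibroblast marker genes on the same arrays, STAT3-MER OHT in red and WT LIF in grey. Mbd3, Hdac1, Rbbp4 and Gatad2a are lowest in STAT3-MER dish 2 and WT dish 1, Hdac2 and Mta2 in dish 3 of both groups.

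The probe sets whose log2 signals followed Mbd3 most closely over the 6 arrays were those of Macrod2 (101440_at, r = 0.997), Wbp11 (161582_r_at, r = 0.99, at only 2.53 to 34.0 on all arrays) and Mrpl18 (93787_f_at, r = 0.99). The Mrpl18 signal, a mitochondrial ribosomal protein, was 6762, 5141 and 6515 in STAT3-MER dishes, against 4344, 8411 and 6508 in WT dishes, high and low in the same dishes as Mbd3. Of the 12421 other probe sets of the chip that are not controls, 162 (1.30%) had r over 0.9 with Mbd3 over these 6 arrays.

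The other known NuRD subunits were counted with 1 probe set per gene, as were the lists that follow. Of 6, 4 were measured, 0 were called, against 0.00626% of all 15964 genes, and 0 had groups that did not overlap, against 7.52% of all genes. The unadjusted p was under 0.05 for 0 of the 4, against 2.93% of all genes. All 4 had a log2 fold change below 0, with -0.40 for Chd5, a Chd4 relative known from neurons whose second probe set had a ratio of 1.19, -0.37 for Cdk2ap1, a small subunit, -0.26 for Mta3 and -0.21 for Mbd2, and a median of -0.31 beside 0.00 over all genes. Their dishes overlapped, as for Cdk2ap1 at 1612, 994 and 1036 in STAT3-MER dishes, against 872, 2264 and 1833 in WT dishes. Among the same counts for the 8 subunits measured here, 3 were above 0 and 5 below, with a median of -0.02.

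The factors that bring NuRD to DNA did not pass the test either. Of 8, 0 were called, against 0.00626% of all genes, and 0 had groups apart, against 7.52% of all genes. The median log2 fold change was 0.09, and it was 0.02 when all probe sets of each gene were averaged. Zfpm1, the GATA cofactor that binds NuRD, had 0.69 (SE 0.60), Zfp281, which recruits NuRD in ES cells, 0.25 (SE 0.24) and Ikzf1, the lymphoid Ikaros factor, 0.37 (SE 0.48). The 3 other probe sets of Zfp281 had ratios of 0.885 to 1.03, and the 3 others of Ikzf1 ratios of 0.609 to 1.89. Of the 12 measured partners in other complexes that share Rbbp4 or Rbbp7, 0 were called and 2 had groups apart (16.7%, against 7.52% of all genes). These were Ezh2, the methyltransferase of Polycomb repressive complex 2, higher by 0.26 on the log2 scale, and Chaf1b, a subunit of the histone chaperone CAF-1, lower by a ratio of 0.821. Ezh2 gave 2679, 2829 and 3087 in STAT3-MER dishes, against 2307, 2224 and 2648 in WT dishes, with an adjusted p of 1 by limma. Of 19 subunits of other class I deacetylase complexes, 0 were called and 0 were apart, with a median of -0.10. In this list Kdm1a, the histone demethylase of the CoREST complex, had a ratio of 1.65 and Ing2, a subunit of the Sin3 complex, one of 0.691, with overlapping dishes.

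Other remodelling complexes served as a comparison for Chd4 and its partners. Of 20 BAF subunits, 0 were called and 4 had groups apart (20%, against 7.52% of all genes), 1 higher and 3 lower. Dpf2 was the higher one, at a ratio of 1.37, and Pbrm1 (0.697), Smarca4 and Smarcb1 the lower ones, each with an adjusted p of 1 by limma. Other probe sets of these genes did not give the same direction throughout. The second of Dpf2 was lower, at a ratio of 0.408 with groups apart, the 5 others of Pbrm1 had ratios of 0.681 to 1.73 and the 3 others of Smarca4 ratios of 0.775 to 1.08. Of 10 other remodellers 0 were called, and 1, the Chd4 relative Chd8, had groups apart (10%, against 7.52% of all genes). Chd8 gave 1035, 929 and 805 in STAT3-MER dishes, against 1281, 1453 and 1309 in WT dishes, a ratio of 0.685 with an unadjusted p of 0.0171 and an adjusted p of 1 by limma. The second probe set of Chd8 lay apart in the other direction, at 275, 197 and 250 in STAT3-MER dishes, against 82.8, 54.9 and 142 in WT dishes (ratio 2.59, adjusted p = 1, limma), so that no direction can be given for the gene. None of these passed the test over all probe sets, and no difference between the lists was tested.

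**Figure D4:**
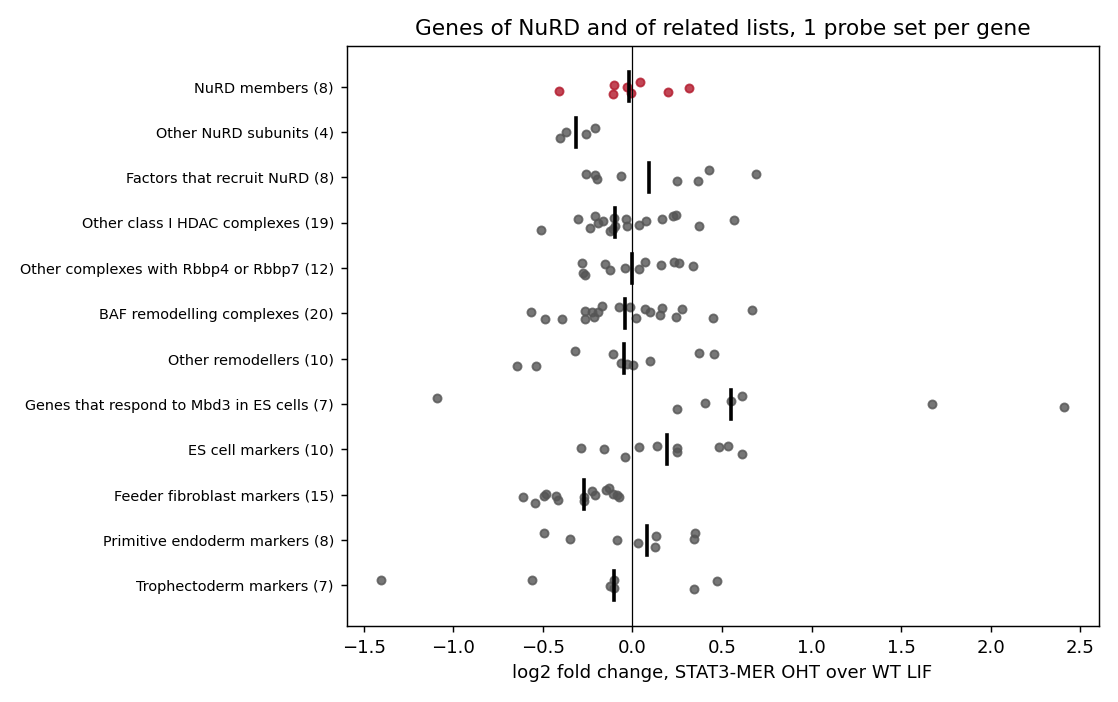
Log2 fold change, STAT3-MER OHT over WT LIF, of each gene of 12 lists (1 probe set per gene, number of measured genes in parentheses), with a black bar at the median of each list and the NuRD subunits in red. The NuRD subunits lie between -0.41 and 0.32, and the widest values are those of Pramel6 at 2.41, Pramel7 at 1.67, Krt8 at -1.40 and Dppa3 at -1.09.

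Genes known to respond when Mbd3 is lost from ES cells held the widest measured differences among the lists around the complex, through 3 genes that the study had picked from these arrays. Pramel6 and Pramel7, which NuRD silences in ES cells, and Dppa3, a maternal factor of the early embryo, were taken up by the study from these arrays by criteria that include the ratio. Neither their direction nor their size here is therefore independent evidence. The study also measured them by quantitative PCR, and reported Pramel6 and Pramel7 as higher and Dppa3 as lower in STAT3-MER cells. Pramel6 gave 1248, 917 and 1747 in STAT3-MER dishes, against 563, 331 and 34.5 in WT dishes. Pramel7 gave 1027, 738 and 1248 in STAT3-MER dishes, against 540, 411 and 95.4 in WT dishes. Dppa3 gave 510, 476 and 514 in STAT3-MER dishes, against 1705, 709 and 1094 in WT dishes. For each of the 3 genes the groups lay apart, with ratios of 4.21 for Pramel6, 2.88 for Pramel7 and 0.427 for Dppa3. Their unadjusted p-values by limma were 0.00984, 0.0126 and 0.0067, and the adjusted p was 1 for each. All 3 genes were highest in WT dish 1 among the WT dishes, where Mbd3 was lowest, at 653. Pramel6 and Pramel7 were lowest in WT dish 3, where Mbd3 was at 1060, and Dppa3 was lowest in WT dish 2, where Mbd3 was highest, at 1437. Among the STAT3-MER dishes, by contrast, all 3 genes and Mbd3 itself were lowest in dish 2 and highest in dish 3. A link between Mbd3 and these genes was not tested. Over all 7 genes of the list, 0 were called, against 0.00626% of all genes, and the median log2 fold change was 0.55. Groups lay apart for 42.9% of the list, the 3 genes taken up by the study, against 7.52% of all genes. The 4 others, Klf4, Klf5, Zfp42 and Tbx3, had overlapping dishes and log2 fold changes of 0.61, 0.55, 0.25 and 0.40.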

How the data were processed

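ES cell RNA of 3 STAT3-MER OHT and 3 WT LIF dishes, amplified in 2 rounds, was hybridized by the authors to 3 Affymetrix chips. The deposited values are linear signal intensities, 1 for each probe set of an array, without detection calls, and the submitters' processing notes name MAS5. One U74Av2 STAT3-MER array without a number in its label took the number left over, and 1 WT array whose labels name 2 chips was read as U74Cv2, whose table holds it.

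Each array was scaled to the mean trimmed mean of its chip (2% left out per side), and log2(signal + 32) was compared with limma 3.58.1 in R 4.3.3 (1 fit per chip, eBayes with trend, two-sided), with Benjamini-Hochberg adjustment over 36701 probe sets at 0.05. The 198 control probe sets were left out. The fit was tested on simulated data. Ratios are of mean signals. Paralog ratios were compared by exact permutation (scipy 1.17.1, numpy 2.4.6). Gene names came from the chip annotation, updated through RefSeq of GRCm38.p6. Lists used 1 probe set per gene, without a cross-hybridization suffix where possible and then the brightest. Named were all NuRD probe sets, Esr1, Pramel6, Pramel7, Dppa3, up to 3 genes of each other list with the smallest p and the 3 probe sets most like Mbd3. After their values were seen, Mbd2, Smarcb1, Krt18, Gchfr, Col1a1, Col5a2, Tagln, Dppa5a and the 4 other Mbd3-responsive genes were named. Sox2 and Nanog were also named, as ES cell markers. The members and lists were chosen with earlier results of these data known. The alternatives (scaling, pseudocount, filter, variance model, adjustment, block, omitted dishes, the methods' t-test with equal or unequal variances, and averaging the probe sets of a gene) are given with their effect in the closing section.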

Additional observations from a re-analysis of the deposited data

How the results depend on the processing

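No NuRD probe set was called by limma under any of the 9 other choices of scaling, pseudocount, filter, variance model, adjustment or block, or with a dish left out, and the smallest adjusted p was 0.999. The sign held under all of these for 7 of the 14 probe sets (3 of Chd4, Rbbp4 and the Gatad2a probe sets 93145_at, 160677_at and 165355_r_at) and turned for the other 7. Only quantile normalization, median scaling, the pseudocounts and the omitted dishes moved the log2 fold changes. The other choices left them as they were, so the held signs rest on those alternatives alone. Mta2 was 0.004 with median scaling, beside -0.01. The count of NuRD probe sets with groups apart, 2, was 1 with quantile normalization and 0 with a mean signal of at least 200, which removes 4 Gatad2a probe sets. By the methods' t-test alone (unequal variances) 2 of the 14 had p under 0.1, as had 2006 of all 36701. The median of the other class I deacetylase complexes was 0.007 when all probe sets of each gene were averaged, beside -0.10.

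With a dish left out, the log2 fold change ranged from -0.406 to 0.145 for Mbd3, -0.071 to 0.272 for Hdac1, -0.265 to 0.036 for Hdac2, -0.294 to 0.252 for Mta2, -0.186 to 0.134 for Rbbp7, -0.031 to 0.606 for Gatad2a 104110_at, -1.569 to -0.576 for Chd4 110040_at and -0.233 to 0.365 for Gatad2a 161854_f_at. The median of the 14 ranged from -0.166 (without STAT3-MER dish 1) to 0.02 (without WT dish 2). The count with groups apart ranged from 2 to 7, with 7 of 14 without STAT3-MER dish 2 (18.3% of all probe sets) and 6 of 14 without WT dish 3 (17.9% of all). The difference of the log2 ratio ranged from -0.341 to 0.415 for Mbd3 over Mbd2, from -0.102 to 0.438 for Hdac1 over Hdac2 and from 0.144 to 0.49 for Rbbp4 over Rbbp7. Over all probe sets 1 to 2 were called, the 2 (Esr1 and Gchfr) without WT dish 3.

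Deviations of same-numbered dishes 1, 2 and 3 correlated at 0.18, 0.211 and 0.13 on U74Bv2 and at 0.107, 0.132 and 0.07 on U74Cv2, where each dish correlated best with its own number, but at -0.295, -0.335 and 0.287 on U74Av2. There STAT3-MER dish 1 correlated best with WT dish 2 (0.413) and STAT3-MER dish 2 with WT dish 1 (0.459), so the numbering of WT dishes 1 and 2 may differ between U74Av2 and the other chips, and the numbers were not taken as pairs. With a replicate block, 0 NuRD probe sets and 1 probe set in all were called, as without it, by the numbers in the labels. The cause of these changes was not tested. The spread of Mbd3, Mta2 and Gatad2a between dishes limits what 3 arrays a group can show.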
